A study of Mus musculus with 12 samples.

Results

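The 10 genes Fos, Fosb, Jun, Junb, Egr1, Egr2, Egr3, Ier2, Nr4a1 and Atf3 are immediate early transcription factor genes. They were taken by gene symbol from a table of 19376 rows, in which each symbol stood on 1 row, and all 10 passed the filter on low counts that left 15079 genes for testing. RNA had been sequenced from the spleens of mice in 12 libraries, 3 in each of 4 groups. Control mice were untreated. AOS mice received alginate oligosaccharides, short chains cut from a seaweed polysaccharide, at 10 mg/kg over 5 weeks. A single dose of busulfan, an alkylating agent toxic to dividing cells, was given to the busulfan group at 40 mg/kg. Mice of the fourth group received 1 such dose and afterwards the same course of AOS, and are called busulfan with AOS. Mice are labelled as IRC, and the tissue entry reads "Cells" although the protocol names spleen. Age is not given in the sources used here. Whether each library stands for its own mouse is not stated either, and the p-values cover no more than the spread between libraries, part of which may be technical.

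Immediate early genes are transcribed within minutes of a stimulus without need for new protein, because the factors that switch them on (serum response factor with its Elk partners, CREB and MEF2) are already present in the resting cell. Their products drive a second wave of genes. Fos, Fosb, Jun and Junb encode subunits of the AP-1 dimer, and Atf3 encodes a stress-induced relative that pairs with Jun proteins. Egr1, Egr2 and Egr3 encode zinc finger factors, which in lymphocytes act downstream of the antigen receptors, Nr4a1 encodes the orphan nuclear receptor Nur77, a widely used reporter of antigen receptor signalling, and Ier2 encodes a nuclear regulator. Cutting and warming a tissue also induces these genes, so their level in bulk tissue is known to depend on handling as well as on the state of the living organ.

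Library totals ran from 15051297 to 16241883 counts. The 5 markers of red pulp macrophages, a cell type of the spleen, summed to 841 to 1437 CPM (counts scaled to a common library total) and none of them was at 0 in any library, as fits the labelled organ. Transcripts of 9 genes of the exocrine pancreas summed to 1236 to 17132 CPM in the AOS libraries and to 15.1 to 1052 CPM in the other 9. The 5 adipocyte markers reached 193 CPM in control 1 and at most 36.3 CPM in the busulfan libraries. In bulk tissue, fewer cells of a type and less RNA per cell cannot be told apart, which holds for every value below.

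None of the 10 genes passed the test in any of the 7 comparisons made (edgeR quasi-likelihood test, Benjamini-Hochberg adjusted over 15079 genes, called at an adjusted p under 0.05). The values nearest to a call belonged to Egr3 and Atf3. Egr3 stood lower with busulfan than in the other 3 groups, and Atf3 stood higher with busulfan than in control or in busulfan with AOS. The mean of Egr1 was highest and that of Jun lowest in busulfan with AOS.

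On a scale that corrects for gene length (FPKM, fragments scaled by gene length and library total), Junb was the most abundant of the 10 genes, with a mean of 31.5 ± 4.12 FPKM (SD over 12 libraries), which placed it at percentile 81.5 of the tested genes. Ier2 followed at 21.9 ± 2.55 FPKM, and the ranges of Junb and Ier2 overlapped although Junb was above Ier2 in 12 of 12 libraries. Nr4a1 averaged 10.6 ± 1.40 FPKM. Its range lay entirely below that of Ier2. The next 3 genes had similar levels, with 8.52 ± 1.81 FPKM for Egr1, 8.24 ± 2.04 FPKM for Egr3 and 7.71 ± 1.78 FPKM for Jun. Nr4a1 was above Egr1 in 9 libraries, Egr1 above Egr3 in 6 and Egr3 above Jun in 6, and these orders went with the groups. Nr4a1 was above Egr1 in each library of control, AOS and busulfan, and below it in each of busulfan with AOS. Egr1 was above Egr3 in each library given busulfan and below it in each without. Egr3 was below Jun in each busulfan library and above it in each of busulfan with AOS. A gap separated Nr4a1, Egr1, Egr3 and Jun from the low genes. The lowest Jun value, 5.06 FPKM, and the lowest Egr3 value, 4.39 FPKM, exceeded the highest Fos value, 3.50 FPKM. Fos averaged 2.39 ± 0.548 FPKM and Egr2 2.29 ± 0.455 FPKM, in an order that held in 6 of 12 libraries. Atf3 averaged 1.52 ± 0.552 FPKM and was below Egr2 in 10 libraries. Fosb was the least abundant at 0.448 ± 0.101 FPKM, percentile 7.81 of the tested genes, and rested on 13 to 30 counts per library.

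Spread between libraries of the same group was ordinary to high for these genes. The standard deviation of log2 CPM within groups placed Nr4a1 at percentile 43.2 of the tested genes and Fos at percentile 80.1, with the other 8 genes between them. From the lowest to the highest of the 12 libraries the level changed 1.42-fold for Junb and 3.04-fold for Atf3. A pair of libraries held 9 of the 10 highest values. Busulfan 1 had the highest value of all 12 libraries for 5 genes (Ier2, Nr4a1, Jun, Fos and Atf3), and busulfan with AOS 1 had it for 4 (Egr1, Egr2, Egr3 and Fosb). Within its group, busulfan with AOS 1 was highest for 10 of 10 genes and busulfan 1 for 8 of 10, where the same libraries were highest of their groups for 35.1% and 32.8% of all tested genes. Busulfan with AOS 2 had the lowest value of the 12 libraries for 4 genes (Ier2, Nr4a1, Jun and Fosb).

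**Figure D1:**
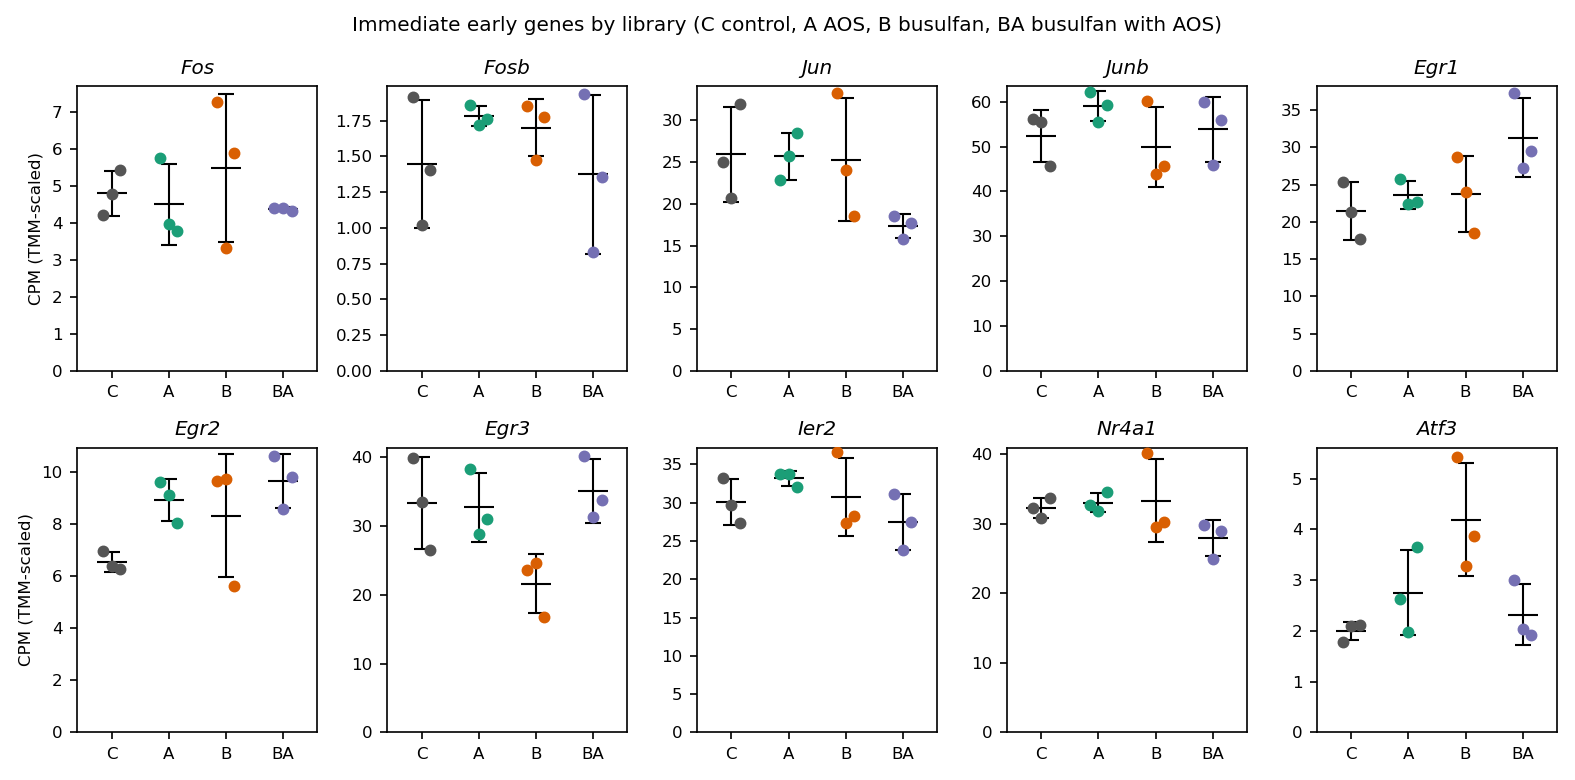
Level of each gene in CPM (vertical axes, from 0) in the 12 libraries, with points for libraries, horizontal lines for group means and bars for the SD of 3 libraries. The 3 busulfan values of Egr3 lie below all others, and the Jun values of busulfan with AOS lie between 15.8 and 18.6 CPM.

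Among the AP-1 genes, Fos is the prototype partner of Jun. Its values were 4.21, 4.78 and 5.43 CPM in control, 5.76, 3.97 and 3.78 CPM with AOS, 7.28, 3.33 and 5.88 CPM with busulfan, and 4.40, 4.40 and 4.31 CPM in busulfan with AOS. The busulfan libraries spanned all the others, and no pair of groups was separated. Fosb, a relative of Fos with a short repressive isoform, had 1.91, 1.02 and 1.41 CPM in control, 1.86, 1.72 and 1.76 CPM with AOS, 1.85, 1.47 and 1.77 CPM with busulfan, and 1.94, 0.830 and 1.36 CPM in busulfan with AOS. Here too all groups overlapped. Junb, which often restrains Jun, had 56.0, 55.4 and 45.5 CPM in control, 62.3, 55.6 and 59.3 CPM with AOS, 60.1, 43.9 and 45.7 CPM with busulfan, and 59.8, 45.8 and 56.0 CPM in busulfan with AOS. Its groups overlapped in all 5 comparisons of a pair of groups.

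Jun (Entrez 16476, GRCm38.p6 chromosome 4, 95049036 to 95052222, minus strand), the main partner of Fos and a target of the JNK kinases, showed a tight and low set of values in busulfan with AOS. It had 25.1, 20.8 and 32.0 CPM in control, 22.9, 25.7 and 28.5 CPM with AOS, 33.3, 24.1 and 18.6 CPM with busulfan, and 18.6, 15.8 and 17.7 CPM in busulfan with AOS. The values of busulfan with AOS lay below all libraries of the other 3 groups, although its highest value, 18.55 CPM, all but touched the lowest of busulfan, 18.60 CPM. Atf3 (Entrez 11910, chromosome 1, 191170296 to 191183333, minus strand), a stress-induced gene that mostly represses transcription, had 1.79, 2.10 and 2.11 CPM in control, 2.62, 1.99 and 3.65 CPM with AOS, 5.43, 3.27 and 3.86 CPM with busulfan, and 3.00, 2.04 and 1.91 CPM in busulfan with AOS. Busulfan lay above control and above busulfan with AOS without overlap, and overlapped AOS through AOS 3. Atf3 rested on 28 to 85 counts per library.

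Egr1, the first of the zinc finger genes to respond in most cells, lies on chromosome 18. It had 25.4, 21.3 and 17.6 CPM in control, 25.8, 22.4 and 22.7 CPM with AOS, 28.7, 24.0 and 18.5 CPM with busulfan, and 37.2, 27.2 and 29.5 CPM in busulfan with AOS. The combined group lay above control and above AOS, and overlapped busulfan through busulfan 1. Egr2 (Entrez 13654, chromosome 10, 67534469 to 67542188, plus strand), which with Egr3 limits T cell activation, had 6.97, 6.37 and 6.26 CPM in control, 9.60, 9.11 and 8.04 CPM with AOS, 9.62, 9.71 and 5.61 CPM with busulfan, and 10.6, 8.55 and 9.79 CPM in busulfan with AOS. Both groups given AOS lay above control, while busulfan 3 had the lowest value of all 12 libraries. Egr3 (Entrez 13655, chromosome 14, 70077317 to 70082613, plus strand) had 39.9, 33.6 and 26.5 CPM in control, 38.3, 28.8 and 31.0 CPM with AOS, 23.6, 24.6 and 16.8 CPM with busulfan, and 40.2, 31.3 and 33.8 CPM in busulfan with AOS. The 3 busulfan values were the 3 lowest of the 12.

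Nr4a1 had 32.2, 30.9 and 33.8 CPM in control, 32.6, 31.9 and 34.6 CPM with AOS, 40.2, 29.5 and 30.3 CPM with busulfan, and 29.8, 25.0 and 29.0 CPM in busulfan with AOS. The combined group lay below control and below AOS, and overlapped busulfan. Ier2 had 33.2, 29.7 and 27.3 CPM in control, 33.7, 33.8 and 32.0 CPM with AOS, 36.6, 27.3 and 28.3 CPM with busulfan, and 31.2, 23.9 and 27.4 CPM in busulfan with AOS. Only from AOS was the combined group separated, on the low side.

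Busulfan against control asks what the single dose of the drug left behind without AOS. Egr3 averaged 21.6 ± 4.26 CPM with busulfan and 33.3 ± 6.71 CPM in control (SD, n = 3 each), a fitted log2 fold change of −0.62 ± 0.18 SE (95% interval −1.03 to −0.22, edgeR adjusted p = 0.111). Atf3 averaged 4.18 ± 1.11 CPM against 2.00 ± 0.184 CPM, a log2 fold change of 1.06 ± 0.29 SE (0.43 to 1.69, edgeR adjusted p = 0.0886). These were the 2 genes with groups that did not overlap, against 23.6% of all tested genes without overlap, and the 2 with an unadjusted p under 0.05, against 20.6%. With 0 of 10 called, the share of all tested genes called was 0.471%. The median log2 fold change of the 10 genes was 0.10, and that of all tested genes −0.01. Intervals of the other 8 genes excluded a change of 2-fold in either direction. DESeq2, which called 923 genes in this comparison where edgeR called 71, called both Egr3 (adjusted p = 0.0272) and Atf3 (adjusted p = 0.0275).

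Summed markers of 4 cell types did not overlap between busulfan and control, although few of the single markers were called (1 of 5 for NK cells and 3 of 7 for neutrophils, 0 of 5 for monocytes and 0 of 5 for red pulp macrophages). The 5 NK cell markers summed to 30.6 to 38.2 CPM with busulfan and to 53.9 to 108 CPM in control. The 7 neutrophil markers summed to 1503 to 8225 CPM against 485 to 914 CPM, the 5 monocyte markers to 282 to 434 CPM against 216 to 267 CPM, and the 5 red pulp macrophage markers to 1160 to 1278 CPM against 866 to 1057 CPM. None of these markers was at 0 in any of the 6 libraries. The part of these cell types in the values of Egr3 and Atf3 was not tested.

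Busulfan with AOS against AOS puts the same question in mice that also received AOS, and Egr3 and Atf3 did not stand apart there. Egr3 averaged 35.1 ± 4.62 CPM with both agents and 32.7 ± 4.99 CPM with AOS, and Atf3 2.32 ± 0.597 CPM and 2.75 ± 0.841 CPM. The separated genes were others. Jun averaged 17.4 ± 1.44 CPM with both agents and 25.7 ± 2.80 CPM with AOS (log2 fold change −0.57 ± 0.21 SE, 95% interval −1.02 to −0.11, edgeR adjusted p = 0.116). For Egr1 the means were 31.3 ± 5.25 CPM and 23.6 ± 1.90 CPM (0.41 ± 0.18 SE, 0.01 to 0.80, edgeR adjusted p = 0.180). Ier2 (−0.27 ± 0.13 SE, edgeR adjusted p = 0.211) and Nr4a1 (−0.24 ± 0.12 SE, edgeR adjusted p = 0.218) were lower in each library of the combined group. In all, 4 of 10 genes had groups without overlap, beside 31.7% of all tested genes, 2 of 10 an unadjusted p under 0.05, beside 25.6%, and 0 of 10 were called, beside 5.81%. The median log2 fold change was −0.19 for the 10 genes and 0.00 for all tested genes. Lower in each library of the combined group were also the summed T cell markers (235 to 312 CPM against 313 to 413 CPM for 5 of 6 genes) and NK cell markers (30.6 to 36.4 CPM against 58.1 to 118 CPM for 5 genes). The same held for the 9 acinar genes of the pancreas (80.1 to 1052 CPM against 1236 to 17132 CPM) and 5 liver genes (7.01 to 14.2 CPM against 38.8 to 162 CPM), while 5 plasma cell markers were higher (1015 to 1099 CPM against 634 to 713 CPM). The T cell sums all but touched (312.35 and 313.06 CPM), and 0 of 5 T cell markers had an unadjusted p under 0.05. Called were 0 of 5 T cell, 4 of 5 NK cell and 1 of 5 plasma cell markers, 0 of 9 acinar genes and 3 of 5 liver genes. None of these markers was at 0 in these 6 libraries, and their part in the values of Jun, Egr1, Ier2 and Nr4a1 was not tested.

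AOS without busulfan was set against control. Egr2 averaged 8.92 ± 0.795 CPM with AOS and 6.53 ± 0.385 CPM in control (log2 fold change 0.45 ± 0.19 SE, 95% interval 0.03 to 0.88, edgeR adjusted p = 0.822). It was the 1 gene of the 10 with groups that did not overlap, beside 10.8% of all tested genes, and the 1 with an unadjusted p under 0.05, beside 5.93%. No gene of the whole table was called by edgeR (0 of 15079, or 0%), where 894 had an unadjusted p under 0.05 and DESeq2 called 70. The 10 genes had a median log2 fold change of 0.14, beside −0.00 for all tested genes. For 8 of the 10 the interval excluded a 2-fold change, the exceptions being Fosb and Atf3. In this comparison the summed acinar genes were higher with AOS (1236 to 17132 CPM against 15.1 to 98.4 CPM for 9 genes, of which 1 was at 0 in control 1), and the 5 adipocyte genes lower (8.47 to 8.77 CPM against 17.3 to 193 CPM, with 2 at 0 in AOS 3). Their part in the values of Egr2 was not tested.

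Mice given the drug were then compared with and without AOS. Egr3 averaged 35.1 ± 4.62 CPM with both agents and 21.6 ± 4.26 CPM with busulfan alone (log2 fold change 0.70 ± 0.18 SE, 95% interval 0.29 to 1.10, edgeR adjusted p = 0.0659), the smallest adjusted p among the 10 genes in the 7 comparisons. Atf3 averaged 2.32 ± 0.597 CPM and 4.18 ± 1.11 CPM (−0.85 ± 0.28 SE, −1.48 to −0.23, edgeR adjusted p = 0.123). Jun averaged 17.4 ± 1.44 CPM and 25.3 ± 7.40 CPM (−0.54 ± 0.21 SE, −0.998 to −0.0921, edgeR adjusted p = 0.162). The groups did not overlap for these 3 of 10 genes, beside 27.3% of all tested genes. Together with Egr1 (0.40 ± 0.18 SE, edgeR adjusted p = 0.228), 4 of 10 had an unadjusted p under 0.05, beside 21.2%, while 0 of 10 were called, beside 3.02%. The median log2 fold change was −0.21 over the 10 genes and 0.00 over all tested genes. Egr3 was called in this comparison by DESeq2 (adjusted p = 0.00895), which called 1157 genes where edgeR called 456. Both this comparison and busulfan against control use the same 3 busulfan libraries, so that a value peculiar to these libraries enters both with opposite signs. Summed smooth muscle and stroma markers (306 to 367 CPM against 368 to 489 CPM for 6 genes) and the 5 liver genes (7.01 to 14.2 CPM against 26 to 110 CPM) were lower in the combined group, with none at 0 in these 6 libraries. The smooth muscle and stroma sums all but touched (366.57 and 368.34 CPM), with 0 of 6 called and 1 of 6 at an unadjusted p under 0.05. Of the liver genes, 0 of 5 were called and 3 of 5 had an unadjusted p under 0.05. The 7 neutrophil markers, none at 0 in any library, had a median log2 fold change of −1.62, with 7 of 7 at an unadjusted p under 0.05 and 0 called, and sums of 687 to 1913 CPM against 1503 to 8225 CPM that overlapped. The part of these cell types in the values of the 10 genes was not tested.

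Busulfan with AOS against control sets both agents against none. Egr1 averaged 31.3 ± 5.25 CPM with both and 21.5 ± 3.88 CPM in control (log2 fold change 0.54 ± 0.18 SE, 95% interval 0.15 to 0.94, edgeR adjusted p = 0.149), and Egr2 9.64 ± 1.02 CPM and 6.53 ± 0.385 CPM (0.56 ± 0.19 SE, 0.14 to 0.99, edgeR adjusted p = 0.165). Jun averaged 17.4 ± 1.44 CPM and 25.9 ± 5.65 CPM (−0.58 ± 0.21 SE, −1.03 to −0.13, edgeR adjusted p = 0.178). With Nr4a1 (27.9 ± 2.59 CPM and 32.3 ± 1.44 CPM, edgeR adjusted p = 0.372), 4 of 10 genes had groups without overlap, beside 23.0% of all tested genes, 3 of 10 had an unadjusted p under 0.05, beside 17.5%, and 0 of 10 were called, beside 0.875%. The median log2 fold change was −0.02 over the 10 genes, beside −0.00 over all tested genes. NK cell markers (30.6 to 36.4 CPM against 53.9 to 108 CPM) and liver genes (7.01 to 14.2 CPM against 32.1 to 291 CPM) were lower in the combined group, with none at 0 in these 6 libraries. In each of these lists 0 of 5 genes were called and 5 of 5 had an unadjusted p under 0.05. The part of both in the values was not tested.

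Averaged over mice with and without AOS, busulfan gave 0 of 10 genes an unadjusted p under 0.05, beside 29.6% of all tested genes, and 0 of 10 were called, beside 8.23%. Intervals of all 10 genes excluded a 2-fold change in this comparison, and the largest value was a log2 fold change of 0.41 ± 0.20 SE for Atf3 (edgeR adjusted p = 0.205). In this comparison 7 of 7 neutrophil markers were called higher, at a median of 1.71, and 5 of 5 NK cell markers lower, at a median of −1.36. The interaction asks whether busulfan acted differently with AOS than without it. Its values were −1.31 ± 0.40 SE for Atf3 (95% interval −2.20 to −0.42, edgeR adjusted p = 0.147) and 0.72 ± 0.26 SE for Egr3 (0.15 to 1.30, edgeR adjusted p = 0.198), each a difference of 2 log2 fold changes. These were the 2 of 10 genes with an unadjusted p under 0.05, beside 16.6% of all tested genes, and 0 of 10 were called, beside 0.484%. For 5 of the 10 genes the interval of the interaction reached beyond 2-fold, so that a 2-fold difference between the busulfan effects was neither shown nor excluded for them (Fos, Fosb, Jun, Egr3 and Atf3). The neutrophil markers had a median interaction of −2.43, with 7 of 7 at an unadjusted p under 0.05 and 0 called. Their part, and that of NK cells, in the values of the 10 genes was not tested.

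**Figure D2:**
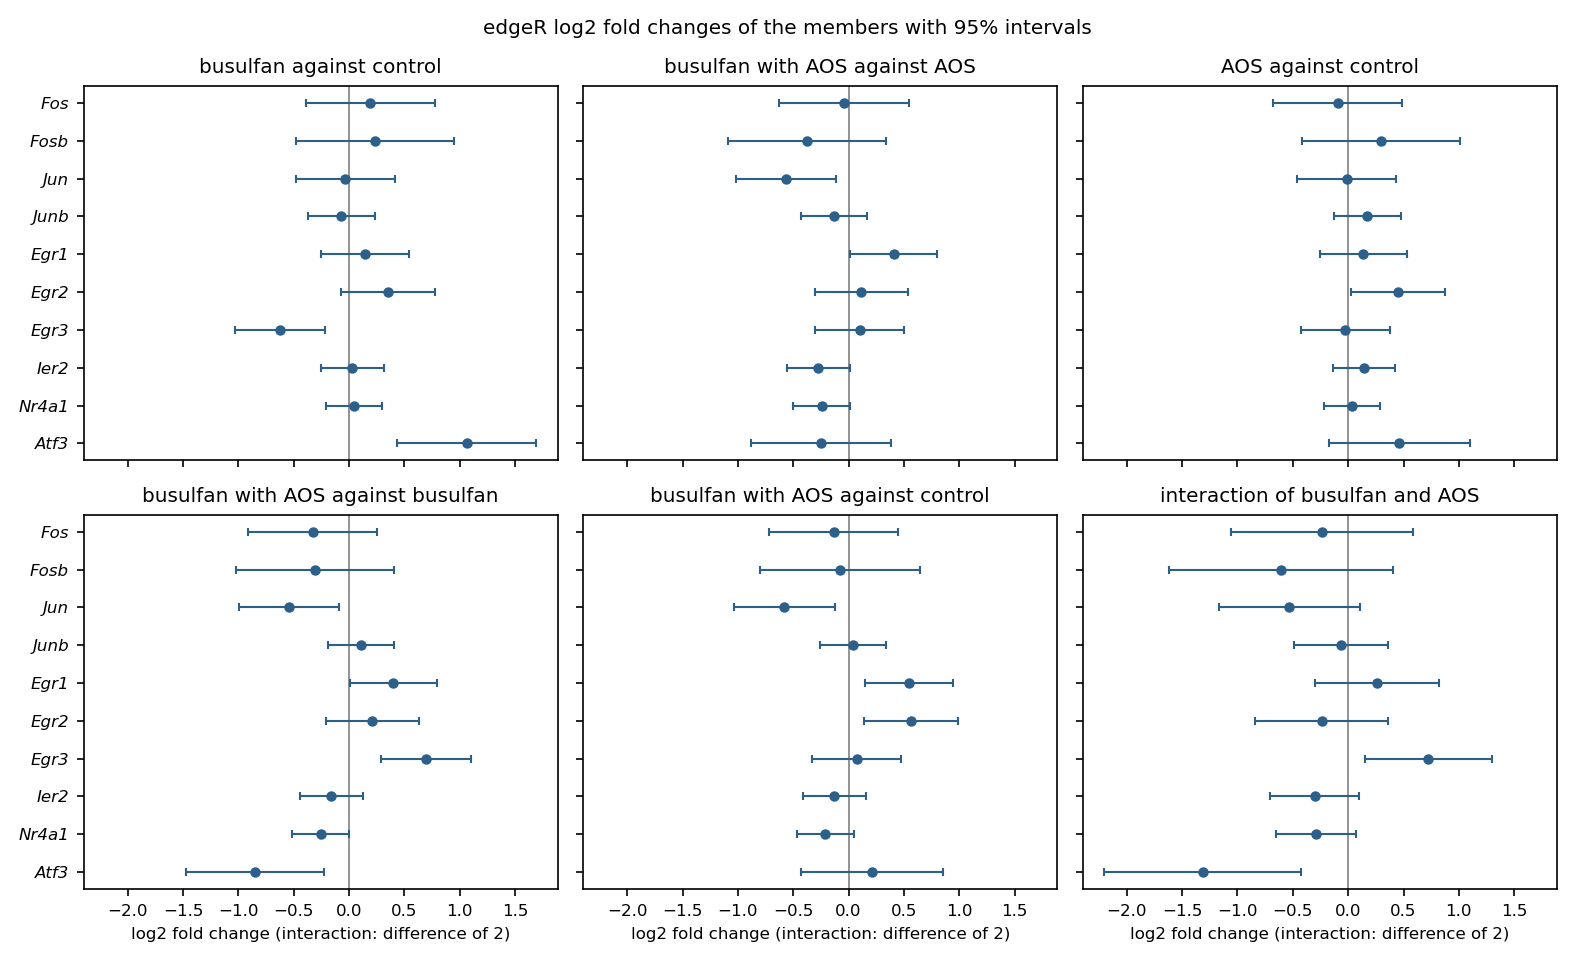
Fitted log2 fold changes (points) of the 10 genes with 95% intervals (bars) in 5 comparisons of a pair of groups, and the interaction, which is a difference of 2 log2 fold changes. Egr3 lies at −0.62 in busulfan against control and at 0.70 in busulfan with AOS against busulfan, and no gene passed the test over all 15079 genes.

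The 10 genes did not move as 1 block. Over the 45 pairs of genes, Pearson's r of log2 CPM across the 12 libraries had a median of 0.23 and ran from −0.55 to 0.88, with 34 pairs above 0. After subtraction of group means the median was 0.46. Of the 45 pairs, 5 had a Benjamini-Hochberg adjusted p under 0.05 for r by a permutation test with 100000 resamples, two-sided. The libraries share the 4 groups and their overall state, so these relations include both. Pairs among other genes were not counted, so whether 5 of 45 exceeds the share for genes at large is not known.

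Jun and Nr4a1 had the highest correlation of the 45 (r = 0.88, permutation p = 5e-05, adjusted 0.00225, Spearman's rho = 0.88, permutation p = 0.00033, adjusted 0.0149, 12 libraries). It was 0.83 without the 2 libraries farthest from the median of Jun and 0.80 within groups. Egr1 and Egr2 came next (r = 0.81, permutation p = 0.00105, adjusted 0.0236, rho = 0.84, permutation p = 0.00121, adjusted 0.0272), with 0.75 without the 2 farthest libraries and 0.79 within groups. In both pairs the relation held within groups, as libraries high for the first gene were high for the second. Ier2 was related to 3 genes. These were Nr4a1 (r = 0.80, permutation p = 0.00175, adjusted 0.0262, rho = 0.64, permutation p = 0.0294, adjusted 0.227), Junb (r = 0.78, permutation p = 0.00256, adjusted 0.0262, rho = 0.76, permutation p = 0.00547, adjusted 0.0820) and Fosb (r = 0.76, permutation p = 0.00291, adjusted 0.0262, rho = 0.66, permutation p = 0.0240, adjusted 0.227). Without the 2 libraries farthest from the median, r was 0.45 for Ier2 and Nr4a1, which rests on those libraries, 0.77 for Junb and Ier2, and 0.78 for Fosb and Ier2. Within groups these pairs had r of 0.76, 0.92 and 0.71. The lowest value was that of Egr3 and Atf3 (r = −0.55, permutation p = 0.0617, adjusted 0.278, rho = −0.58, permutation p = 0.0521, adjusted 0.293), with −0.16 without the 2 farthest libraries and 0.16 within groups. Fos and Jun, the classical AP-1 pair, had r = 0.23 (permutation p = 0.472, adjusted 0.760, rho = 0.02, permutation p = 0.956, adjusted 0.974), and 0.01 without the 2 farthest libraries.

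**Figure D3:**
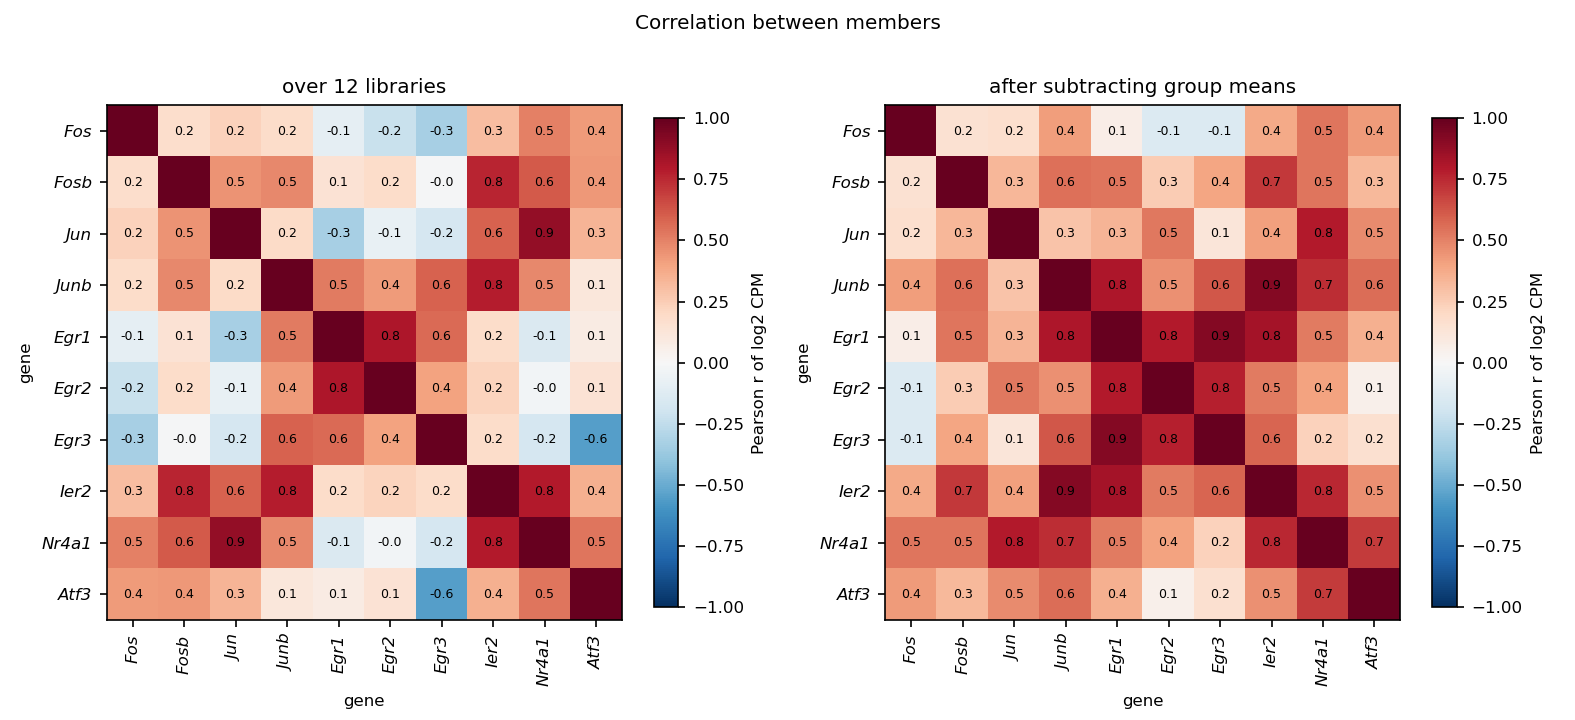
Pearson's r of log2 CPM between the 10 genes (both axes list the genes) over the 12 libraries on the left and after subtraction of group means on the right, with red above and blue below 0. Jun with Nr4a1 and Egr1 with Egr2 stand out on the left, where the lowest value, −0.55, is that of Egr3 with Atf3.

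Upstream sequences of 250 bases were looked up in RefSeq (GRCm38.p6) for the genes that moved as pairs, to show which recognition sequences of the known upstream factors they hold. A window was found for 7 of the 10 genes. Shown are Jun and Nr4a1, the most similar pair, and Egr2, the only gene of those 7 with a CArG box, the site of serum response factor, in a window. Bases farther upstream were not searched, so a site missing from a window may still lie outside it. Capitals mark, on either strand, the CArG box, the CREB core TGACG, which reads as its reverse complement on the other strand, and the AP-1 and ATF site as found before Jun, whose letters are TGACATCA. Each runs 5′ to 3′ on the strand of the gene and ends at the base before an annotated start. The windows are chr4:95052223-95052472 (minus strand) for Jun, chr15:101266596-101266845 (plus strand) for Nr4a1 and chr10:67537619-67537868 (plus strand) for Egr2, which is 1 of 5 annotated for that gene.
Jun: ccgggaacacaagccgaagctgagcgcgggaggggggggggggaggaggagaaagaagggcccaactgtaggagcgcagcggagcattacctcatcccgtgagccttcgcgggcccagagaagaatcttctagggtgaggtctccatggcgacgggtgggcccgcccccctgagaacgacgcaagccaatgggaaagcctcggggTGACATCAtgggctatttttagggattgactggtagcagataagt
Nr4a1: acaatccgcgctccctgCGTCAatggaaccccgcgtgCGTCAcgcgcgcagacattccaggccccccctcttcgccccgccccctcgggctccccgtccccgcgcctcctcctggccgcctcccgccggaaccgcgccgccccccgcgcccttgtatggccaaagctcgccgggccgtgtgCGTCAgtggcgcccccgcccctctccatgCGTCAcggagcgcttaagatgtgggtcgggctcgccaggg
Egr2: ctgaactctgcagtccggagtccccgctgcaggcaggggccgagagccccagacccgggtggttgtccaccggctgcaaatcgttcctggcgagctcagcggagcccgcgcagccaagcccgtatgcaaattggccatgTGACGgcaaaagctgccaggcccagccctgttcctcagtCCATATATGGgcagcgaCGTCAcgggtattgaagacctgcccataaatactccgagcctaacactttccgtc

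The Jun window holds TGACATCA 45 to 38 bases before the start, a match found in 2.84% of 32536 distinct windows of that length, and GAANNTTC (N any base), a part of the heat shock element, 128 to 121 bases before it, found in 6.72%. TGACG occurs 4 times in the Nr4a1 window and in 6 of the 7 genes with a window (Fos, Fosb, Junb, Egr2, Nr4a1 and Atf3), against 17.9% of all windows. A gene was counted if any of its windows matched, and Egr2 has 5 windows, not all with TGACG. Shares of genes and of windows are therefore not alike. A CArG box lies 72 to 63 bases before the start of Egr2 and in 1.48% of all windows. The Egr site GCGNGGGCG was found in Fosb and Nr4a1 and in 4.74% of all windows, and TATAAA in Fos and in 12.3%. The full CREB site TGACGTCA, which contains TGACG, was in none of the 7 and in 1.56% of windows, and the AP-1 site TGANTCA in none and in 6.73%. These matches describe letters in a window, and binding was not measured.

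A search over 11297 genes with a mean of at least 5 CPM ranked for each of the 10 genes the 3 others whose log2 CPM ran most like it over the 12 libraries, by Pearson's r and as a description only. Egr3 was most like Ppp3cc (r = 0.96), which encodes a catalytic subunit of calcineurin, and Bfar (0.94). Within groups these values were 0.92 and 0.97. Jun was most like Hspa1a (0.94), which encodes the inducible chaperone HSP70, Kcnk5 (0.94), a potassium channel gene, and Ahsa2 (0.93), which encodes a co-chaperone of HSP90. Hspa1a has a near-identical copy, Hspa1b, so its reads may have been split, and it was listed at 0 in the 3 libraries of busulfan with AOS, at 1.65 to 66.8 CPM in control, 2.90 to 6.56 CPM with AOS and 1.58 to 31.0 CPM with busulfan. Within groups the Jun values were 0.93, 0.94 and 0.96. Kcnk5 was also among the 3 most like Nr4a1 (0.90), with the ubiquitin ligase genes Siah2 (0.90) and Pja1 (0.90).

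Junb ran with Pdcd2 (0.91), Cd3e (0.91), the epsilon chain of the T cell receptor complex, and Ms4a6b (0.91). Ier2 ran with Stim2 (0.93), a calcium sensor of the endoplasmic reticulum, Tspyl2 (0.93) and Tprn (0.93). Egr1 ran with Pnkd (0.93), Tsr2 (0.93) and Snapc2 (0.91), and Egr2 with Uchl3 (0.88), Tox2 (0.86) and Gdi2 (0.84). Atf3 ran with Snrpa (0.92) and with Manf (0.91) and Mydgf (0.91), which encode proteins resident in or secreted through the endoplasmic reticulum. Within groups these values were 0.89, 0.73 and 0.69. Lower values were found for Fosb, with Inpp4a (0.87), Rp9 (0.85) and Ppan (0.83), and for Fos, with Wrap73 (0.85), Tnfsf13b (0.82) and Znrd1 (0.81). All points share their library's depth and cell composition.

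**Figure D4:**
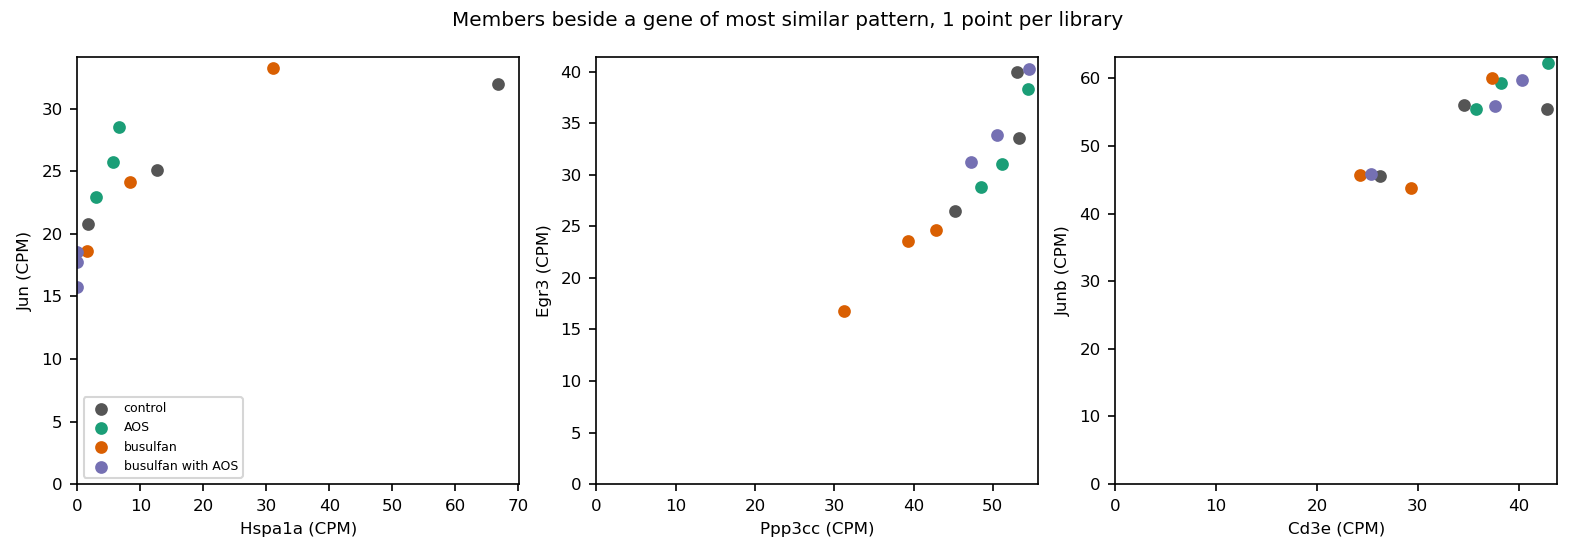
Level in CPM of Jun, Egr3 and Junb (vertical axes) against that of a gene with a similar pattern, Hspa1a, Ppp3cc and Cd3e (horizontal axes), with 1 point per library coloured by group. The busulfan libraries sit at the low end for Egr3, and the 3 libraries of busulfan with AOS sit at 0 for Hspa1a.

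Close relatives of the 10 genes had a wide range of levels. Jund, an AP-1 subunit, averaged 22.9 ± 3.11 FPKM in control, and Ier5 36.6 ± 6.10 FPKM. Fosl2, an AP-1 subunit that appears later than Fos, averaged 3.66 ± 0.221 FPKM in control, Nr4a3 1.35 ± 0.272 FPKM, Ier3 1.08 ± 1.17 FPKM and Nr4a2 0.513 ± 0.146 FPKM. Fosl1 and Egr4 were near 0 (at most 0.138 and 0.0667 CPM in any library) and did not pass the filter on low counts.

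Of these relatives, Fosl2 passed the test in 3 comparisons. It had 20.2, 21.8 and 22.6 CPM in control, 20.5, 20.8 and 22.6 CPM with AOS, 40.0, 26.2 and 45.7 CPM with busulfan, and 10.2, 11.7 and 14.9 CPM in busulfan with AOS. Control and AOS overlapped, busulfan lay above both and the combined group below both, without overlap. Fosl2 fell in busulfan with AOS against busulfan (log2 fold change −1.60 ± 0.19 SE, edgeR adjusted p = 0.00593) and against AOS (−0.79 ± 0.19 SE, edgeR adjusted p = 0.0403), and the interaction passed (−1.59 ± 0.27 SE, edgeR adjusted p = 0.0361). In busulfan against control it had 0.79 ± 0.19 SE (edgeR adjusted p = 0.0714). The neutrophil markers had a median of −1.62 against busulfan. They summed to 3544, 1503 and 8225 CPM in busulfan 1 to 3, where Fosl2 had the same order. In each of the other groups the order differed. The sums were 687, 1913 and 1772 CPM in busulfan with AOS and 485, 914 and 673 CPM in control. These sums overlapped, where Fosl2 was lower in each library of the combined group. The part of neutrophils in the values of Fosl2 was not tested. Against busulfan the call held when any 1 of the 12 libraries was left out. Against AOS it held in 3 of those 12 fits, as did the interaction, and each was lost with limma on FPKM. Of the other relatives, Ier5 was lower in the average over AOS (−0.34 ± 0.08 SE, edgeR adjusted p = 0.0310), a call held in 4 of 12 such fits, and Jund, Nr4a2, Nr4a3 and Ier3 were called in none of the 7 comparisons.

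Of 18 AP-1 and ATF partners, 17 were tested. With both agents against busulfan 2 were called lower, beside 3.02% of all tested genes called in either direction, Fosl2 and Jdp2, a repressor of AP-1 (7.68 ± 0.940 against 13.7 ± 2.82 CPM, edgeR adjusted p = 0.0427), with a median of −0.12. Against AOS 2 were called lower, beside 5.81% of all tested genes, Fosl2 and Atf7 (83.3 ± 2.86 against 102 ± 4.03 CPM, edgeR adjusted p = 0.0460), with a median of −0.10. In the average over AOS 1 was called, beside 8.23% of all tested genes, which was Atf7, lower (−0.27 ± 0.05 SE, edgeR adjusted p = 0.0223), and in the interaction 1, Fosl2, beside 0.484%. In the other 3 comparisons 0 of 17 were called by edgeR, where 5 of busulfan against control, 1 of AOS against control and 3 of busulfan with AOS against control had an unadjusted p under 0.05, beside 20.6%, 5.93% and 17.5% of all tested genes. The smallest p belonged there to Fosl2 and Jdp2 (0.80, edgeR adjusted p = 0.0724) with busulfan, to Jund (0.34, adjusted p = 0.744) and Atf5 (−0.22, adjusted p = 0.846) with AOS, and to Fosl2 (−0.81, adjusted p = 0.0748) and Atf7 (−0.27, adjusted p = 0.0994) with both. The call of Jdp2 held in 4 of 12 fits with a library left out, and those of Atf7 in 2 of 12 against AOS and 9 of 12 in the average.

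Of 32 other immediate early genes, 30 were tested. In busulfan with AOS against busulfan 4 were called lower and 0 higher, beside 3.02% of all tested genes called in either direction, with a median of −0.25. Sik1, a kinase induced by cyclic AMP, fell from 76.1 ± 8.16 to 36.3 ± 2.44 CPM (log2 fold change −1.07 ± 0.12 SE, edgeR adjusted p = 0.00525). The clock gene Per1 fell from 57.6 ± 8.51 to 28.5 ± 3.58 CPM (edgeR adjusted p = 0.00824). Also lower were Ctgf, a matricellular protein gene (51.9 ± 1.08 to 27.4 ± 2.46 CPM, edgeR adjusted p = 0.0265), and Rhob, a small GTPase gene (48.0 ± 3.64 to 34.9 ± 2.87 CPM, edgeR adjusted p = 0.0324). The calls of Sik1 and Per1 held whichever 1 of 12 libraries was left out, and those of Ctgf and Rhob in 7 of 12 fits each. Against AOS 3 were lower and 0 higher, beside 5.81% of all tested genes, with a median of −0.15. These were Sik1 (59.3 ± 9.34 to 36.3 ± 2.44 CPM, edgeR adjusted p = 0.0153), Ctgf (47.9 ± 7.08 to 27.4 ± 2.46 CPM, edgeR adjusted p = 0.0330) and the antiproliferative gene Btg2 (277 ± 21.5 to 215 ± 15.5 CPM, edgeR adjusted p = 0.0411), held in 11, 7 and 3 of 12 fits.

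With busulfan against control 2 of the 30 rose and 0 fell, beside 0.471% of all tested genes called in either direction, with a median of 0.15. Rhob rose from 29.7 ± 2.71 to 48.0 ± 3.64 CPM (0.69 ± 0.10 SE, edgeR adjusted p = 0.0248) and Per1 from 31.2 ± 3.63 CPM to 57.6 ± 8.51 CPM (0.88 ± 0.13 SE, edgeR adjusted p = 0.0299), held in 6 and 4 of 12 fits. In the average over AOS 4 were called, beside 8.23% of all tested genes. Rhob (0.40, edgeR adjusted p = 0.0174) and Trib1 (0.33, edgeR adjusted p = 0.0455) were higher, and Ier5 and Klf2 (−0.45, edgeR adjusted p = 0.0365), a quiescence factor of lymphocytes, lower, held in 12, 2, 4 and 3 of 12 fits. The interaction passed for 2 of the 30, beside 0.484% of all tested genes, Sik1 (−1.32 ± 0.17 SE, edgeR adjusted p = 0.0116) and Per1 (−1.37 ± 0.19 SE, edgeR adjusted p = 0.0156). AOS against control and busulfan with AOS against control gave 0 calls by edgeR, with 3 and 9 genes at an unadjusted p under 0.05, beside 5.93% and 17.5% of all tested genes. The smallest p belonged there to Myc (0.37, adjusted p = 0.574) and Per1 (0.35, adjusted p = 0.807) with AOS, and to Btg2 (−0.42, adjusted p = 0.0554) and Sik1 (−0.46, adjusted p = 0.0889) with both.

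Among 20 feedback regulators, all tested, Nab2 was lower in 3 comparisons. Nab2, a corepressor that binds Egr proteins and is itself an Egr target, had 30.6, 29.6 and 26.6 CPM in control, 31.0, 28.1 and 27.8 CPM with AOS, 23.7, 20.4 and 16.5 CPM with busulfan, and 19.4, 15.3 and 18.4 CPM in busulfan with AOS. All 6 libraries given busulfan lay below the 6 without it. It fell in the average over AOS (log2 fold change −0.61 ± 0.09 SE, edgeR adjusted p = 0.0159), in busulfan with AOS against AOS (−0.71 ± 0.13 SE, edgeR adjusted p = 0.0206) and against control (−0.71 ± 0.13 SE, edgeR adjusted p = 0.0367), held in 12, 8 and 2 of 12 fits with a library left out, and each was lost without both control 1 and AOS 2. In busulfan against control it had −0.52 (edgeR adjusted p = 0.0797). Zfp36l2, which speeds the decay of AU-rich transcripts, was lower in busulfan with AOS than with AOS (171 ± 13.4 against 232 ± 9.27 CPM, edgeR adjusted p = 0.0366) and than with busulfan (against 258 ± 40.4 CPM, edgeR adjusted p = 0.0190), and its interaction passed (−0.77 ± 0.14 SE, edgeR adjusted p = 0.0492), held in 3, 9 and 1 of 12 fits. Socs3, a feedback inhibitor of cytokine receptors, rose against busulfan from 20.8 ± 1.48 to 32.3 ± 4.35 CPM (edgeR adjusted p = 0.0366), held in 4 of 12. In all, busulfan with AOS gave 2 calls against AOS, beside 5.81% of all tested genes, at a list median of −0.16, 2 against busulfan, beside 3.02%, at 0.02, and 1 against control, beside 0.875%, at −0.04, while the average gave 1, beside 8.23%, and the interaction 1, beside 0.484%. Busulfan against control and AOS against control gave 0 calls by edgeR, with 5 and 3 genes at an unadjusted p under 0.05, beside 20.6% and 5.93% of all tested genes, the smallest after Nab2 being Zfp36l2 (0.34, adjusted p = 0.113) with busulfan, and Dusp2 (0.43, adjusted p = 0.666) and Spred1 (−0.22, adjusted p = 0.822) with AOS.

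Upstream factors, 22 tested, were called lower with busulfan in the average over AOS for 6 genes and higher for 0, beside 8.23% of all tested genes called in either direction, with a median of −0.13. In the same comparison 7 of 7 neutrophil markers were called higher and 5 of 5 NK cell markers lower, and their part in the values of these factors was not tested. The 6 were the MEF2 factors Mef2d (−0.23, edgeR adjusted p = 0.0333) and Mef2c (−0.30, edgeR adjusted p = 0.0402), Creb1 (−0.19, edgeR adjusted p = 0.0389), its coactivators Crtc3 (−0.25, edgeR adjusted p = 0.0389) and Crtc2 (−0.27, edgeR adjusted p = 0.0473), and Elk4 (−0.19, edgeR adjusted p = 0.0432), a partner of serum response factor. All 6 changes were small, and their calls held in 1 to 4 of 12 fits with a library left out. Against AOS, busulfan with AOS had Creb1 (125 ± 4.98 against 161 ± 4.28 CPM, edgeR adjusted p = 0.0193) and Mef2d (180 ± 9.78 against 239 ± 7.68 CPM, edgeR adjusted p = 0.0217) lower and the JNK gene Mapk9 higher (102 ± 3.44 against 80.4 ± 3.81 CPM, edgeR adjusted p = 0.0329), held in 7, 7 and 6 fits, with a median of −0.10 and 5.81% of all tested genes called. Against busulfan, Crem, a factor induced by cyclic AMP, was lower (14.01 ± 0.840 against 23.3 ± 4.22 CPM, edgeR adjusted p = 0.0332, held in 6 fits), with a median of −0.01 and 3.02% of all tested genes called. The other 4 comparisons gave 0 calls by edgeR, with 8 genes at an unadjusted p under 0.05 in busulfan against control, 0 in AOS against control, 5 in busulfan with AOS against control and 6 in the interaction, beside 20.6%, 5.93%, 17.5% and 16.6% of all tested genes. In these the smallest p belonged to Crem (0.66, adjusted p = 0.0692) and Mkl2 (−0.27, adjusted p = 0.0724), to Map2k1 (0.18, adjusted p = 0.822) and Mkl1 (0.13, adjusted p = 0.875), to Creb1 (−0.27, adjusted p = 0.0830) and Mef2d (−0.30, adjusted p = 0.0894), and to Creb1 (−0.35, adjusted p = 0.110) and Crem (−0.76, adjusted p = 0.122).

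Heat shock genes encode chaperones that raised temperature and protein damage induce. The 11 genes summed to 2544 to 2805 CPM in busulfan with AOS, against 5405 to 10468 CPM with busulfan, 5032 to 7351 CPM with AOS and 4189 to 7220 CPM in control, with 1 or 2 of the 11 at 0 in each library of the combined group and 0 elsewhere. Called lower were 7 against busulfan, at a median of −1.67, with Dnaja1 (−2.10), Hspb1 (−2.19), Hspa8 (−1.52), Hsph1 (−3.04), Hspe1 (−0.90) and Hsp90aa1 (−1.38) the 6 of smallest p (edgeR adjusted p 0.00988 to 0.0282). Against AOS 4 were called (Dnaja1, Hspa8, Hsph1 and Dnajb1, edgeR adjusted p 0.0132 to 0.0382), at a median of −1.41, against control 1, Dnaja1 (−1.60 ± 0.29 SE, edgeR adjusted p = 0.0346), at a median of −0.995, and in the interaction 4 (Hspa8, Dnaja1, Hsph1 and Hspb1). None was higher in these 4 comparisons, in which 3.02%, 5.81%, 0.875% and 0.484% of all tested genes were called. With 1 library left out at a time, the calls against busulfan held in 8 to 12 of 12 fits. Against AOS those of Dnaja1 and Hspa8 held in 11, Hsph1 in 7 and Dnajb1 in 4, against control that of Dnaja1 in 2, and in the interaction they held in 1 to 4. The call against control was also lost with only the libraries compared and with the replicate block. Busulfan against control, with 5 of 11 at an unadjusted p under 0.05 beside 20.6% of all tested genes, AOS against control, with 1 beside 5.93%, and the average over AOS, with 5 beside 29.6%, gave 0 calls by edgeR. The smallest p belonged there to Hspb1 (1.36, adjusted p = 0.0667) and Hspe1 (0.63, adjusted p = 0.0816), to Hspa1b (adjusted p = 0.808) and Hspa8 (0.42, adjusted p = 0.846), and to Dnaja1 (−0.69, adjusted p = 0.0575) and Hspa1b (adjusted p = 0.0578), where Hspa1b, with its near-identical copy, is uncertain. The group in which this list was lowest also had the lowest means of Jun, Nr4a1, Ier2, Fos and Fosb and the highest means of Egr1, Egr2 and Egr3. Fos and Fosb overlapped between all groups. Egr3 (35.1 ± 4.62 CPM) overlapped control (33.3 ± 6.71 CPM) and AOS (32.7 ± 4.99 CPM). The means of Junb and Atf3 were neither lowest nor highest there. The part of the heat shock genes, or of what they respond to, in the values of the 10 genes was not tested.

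Counting could touch some of these genes. Fractional expected counts, which can come from reads shared between genes or copies, occurred in 12 libraries for Junb, in 10 for Egr2 and in 2 for Nr4a1. Junb and Prdx2, a peroxiredoxin gene on the opposite strand, overlap in the GENCODE annotation, and Prdx2 stood at 751 ± 127 to 1041 ± 84.2 CPM in the 4 groups (SD, n = 3), so that Junb is uncertain where strand was not used. Jun overlaps the antisense gene Junos and Atf3 the small RNA gene Gm24748, neither of which was analysed here.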

How the data were processed

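RNA of 12 mouse spleen libraries (3 per group) was analysed from 1 table of genes. The build is mm10, per the submitters' processing notes, and the sources used here name no aligner, counter, annotation or strand setting. The authors deposited expected counts (75.7% whole numbers) and normalised values read as FPKM, since they followed counts and library totals to within 0.338% over 1227 genes, where TPM would be off by up to 7.88%. A further 8 columns of averages were not used. Rows numbered 19376. The sample code of the busulfan libraries, SBA0, was read as busulfan without AOS. Counts of same-group libraries gave a chi-square of 15.9 to 72.7 per degree of freedom over 12 pairs, so none was a copy.

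After rounding, edgeR 4.0.16 (R 4.3.3) tested the counts (filterByExpr, TMM factors 0.965 to 1.04, 1 model of 4 group means, glmQLFit, 8 residual and 2.97 prior degrees of freedom, two-sided), and the step was tested on simulated data. CPM use TMM-scaled totals. SE is the fold change over the square root of F. Correlations used log2(CPM + 0.5). Alternatives used DESeq2 1.42.0, limma 3.58.1 on log2(FPKM + 1), other scalings, filters and samples. The rest used scipy 1.17.1, numpy 2.4.6, matplotlib 3.10.9 and pandas 2.3.3 under Python 3.11.15.

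The 10 genes, the lists and the rules were chosen with earlier results of these data known. The text names all 10 genes, their 8 closest relatives, from each related list the genes called (the 6 of smallest p where more were), or the 2 with the smallest p where none was, and for each of the 10 the 3 genes of most similar pattern. Results of some genes and of 1 marker list are not reported here.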

Additional observations from a re-analysis of the deposited data

Results flagged for a closer look

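For 8 related genes, and for none of the 10 described, the effect of busulfan differed between mice with and without AOS by the test of the difference itself (edgeR interaction, adjusted p under 0.05 over all genes). They were 4 of 11 heat shock genes, 2 of 30 other immediate early genes, 1 of 17 AP-1 and ATF partners and 1 of 20 feedback regulators. Of 22 upstream factors 0 were called. Among all tested genes the share called in the interaction was 0.484%. The interaction, a difference of 2 log2 fold changes, was −1.59 for Fosl2, −1.32 for Sik1, −1.37 for Per1, −0.77 for Zfp36l2, −2.39 for Dnaja1, −1.94 for Hspa8, −2.37 for Hspb1 and −3.33 for Hsph1. With 1 library left out at a time, the call held in 3, 11, 9, 1, 2, 4, 1 and 2 of 12 fits in that order, and without both control 1 and AOS 2 in none.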

How the results depend on the processing

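Across 21 alternative fits in each comparison of a pair of groups, 0 of the 10 genes were called, with 3 exceptions. DESeq2 called 2 in busulfan against control (Egr3 and Atf3) and 1 in busulfan with AOS against busulfan (Egr3), and the replicate block called 1 in the latter (Egr3, adjusted p = 0.0343). With any 1 of the 12 libraries left out the count was 0 in each of the 7 comparisons. Of 1520 alternative fold changes of the 10 genes, 43 had the other sign, none of them called under either setting. In busulfan against control Egr3 ran from −0.75 to −0.47 (adjusted p 0.0272 to 0.273) and Atf3 from 0.59 to 1.21 (adjusted p 0.0275 to 0.250), and in busulfan with AOS against busulfan Egr3 ran from 0.54 to 0.80 (adjusted p 0.00895 to 0.194). Whether the replicate numbers pair the libraries was not settled. Of 18 same-numbered pairs, 5 deviated together with r over 0.1 (range −0.07 to 0.27). Control 3 had 0.27 with AOS 3 and 0.18 with busulfan 3, and AOS 3 had 0.16 with busulfan 3. Busulfan with AOS 3 had −0.01 to 0.07 with these libraries. Differently numbered libraries reached 0.21 (control 2 with busulfan 1). The block is therefore given as an alternative fit and not as a paired design.

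Counts over all genes moved more. Counts are given for busulfan v control, then both agents v AOS, AOS v control, both agents v busulfan, both agents v control, the average and the interaction. edgeR called 71, 876, 0, 456, 132, 1241 and 73 genes, DESeq2 923, 1773, 70, 1157, 760, 2375 and 629, limma on FPKM 18, 750, 0, 299, 77, 883 and 71, no filter 42, 614, 0, 345, 105, 918 and 43, the replicate block 10, 897, 1, 364, 99, 1292 and 33, and the fit without control 1 and AOS 2 0, 50, 2, 174, 0, 9 and 7. Only the libraries compared gave 0, 440, 1, 86 and 1 in the first 5. With 1 library left out the counts ran from 0 to 470, 28 to 913, 0 to 2, 45 to 531, 3 to 173, 83 to 2051 and 8 to 110. The cause was not tested. Of 54 calls of related genes, 44 were lost without busulfan with AOS 2, 36 without busulfan with AOS 1 or 3, 29 without AOS 1 and 10 to 27 without any 1 of the other 8. Low counts limit Fosb (13 to 30 per library) and Atf3 (28 to 85).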
